A study of Mus musculus with 2 samples.

Results

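The Slc25 family, the mitochondrial solute carriers, was examined in interscapular brown fat. Its members were taken as every non-control probe whose gene name in the array files begins with Slc25a, leaving out Slc25a1 and Slc25a20. This gave 12 probes for 9 genes, of 41174 probes with 38354 gene names on the array. RNA of mice carrying a double knockout (DKO), in which Rora, a nuclear receptor gene, is one of those deleted, was set against RNA of wild-type mice (WT). All were C57BL/6 males 2 to 3 months old, 4 per genotype, with tissue taken near circadian time 20. One array, called the DKO-Cy5 array, carried DKO in the red dye Cy5 and WT in the green dye Cy3. The other, the DKO-Cy3 array, carried them the other way round. The arrays were counted as 1 replicate per genotype, because the sources used here do not say whether they hold separate RNA. No test between genotypes was possible, so each result below is given by both arrays, with the mean and SD over 2 arrays. Where a probe is said to read 2 values, these are its log2 ratios of DKO over WT, that of the DKO-Cy5 array before that of the DKO-Cy3 array. In whole tissue, fewer cells of one type and less RNA per cell cannot be told apart. Nor can the loss of Rora be told apart from that of the other deleted gene, which is not named here.

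Carriers of this family sit in the inner mitochondrial membrane, with a few in other organelles, and each moves a small set of solutes. The ADP/ATP and phosphate carriers supply ATP synthase. Others exchange dicarboxylates, amino acids, nucleotides, cofactors and iron between cytosol and matrix. Brown fat is rich in mitochondria, and its uncoupling protein Ucp1 belongs to the same protein family although its symbol does not say so. Rora and its relatives are nuclear receptors that bind a half-site, AGGTCA, preceded by an A- and T-rich stretch.

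The promoter sequences of 3 genes that stand out in the results below are shown. Slc25a10 read lower in DKO on both arrays, the probes of Slc25a17 read higher on both, and Slc25a3 gave arrays that disagreed. Whether these ratios depend on the promoter sequences was not tested. Each sequence is the 250 bases before an annotated start, on the gene's strand, from RefSeq on GRCm38.p6. Slc25a10 lies at chr11:120491587-120491836 on the plus strand, Slc25a17 at chr15:81360766-81361015 on the minus strand and Slc25a3 at chr10:91123968-91124217 on the minus strand. Capitals mark a match to a form of the site of nuclear respiratory factor NRF1, taken as GCGC, any base, then TGCGC, which lies 214 to 205 bases before the start of Slc25a3.
Slc25a10: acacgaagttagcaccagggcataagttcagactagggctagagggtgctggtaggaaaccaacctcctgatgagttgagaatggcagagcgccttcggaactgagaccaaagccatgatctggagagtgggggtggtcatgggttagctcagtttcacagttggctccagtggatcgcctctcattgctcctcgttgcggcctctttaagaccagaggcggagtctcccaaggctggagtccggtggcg
Slc25a17: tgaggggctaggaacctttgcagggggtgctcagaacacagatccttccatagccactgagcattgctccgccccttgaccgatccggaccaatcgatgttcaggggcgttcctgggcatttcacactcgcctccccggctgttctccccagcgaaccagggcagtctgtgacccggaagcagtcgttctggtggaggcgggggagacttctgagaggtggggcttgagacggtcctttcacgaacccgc
Slc25a3: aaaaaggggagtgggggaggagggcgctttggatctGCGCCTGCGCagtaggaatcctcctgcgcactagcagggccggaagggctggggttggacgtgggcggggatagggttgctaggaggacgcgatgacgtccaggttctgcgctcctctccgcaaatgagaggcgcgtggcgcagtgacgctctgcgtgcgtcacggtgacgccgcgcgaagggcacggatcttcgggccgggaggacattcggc
AGGTCA and the NRF1 site were searched on both strands in 13 such windows, which covered 8 of the 9 genes. None held AGGTCA, which 14% of all 32851 windows of this length hold. The longer TAGGTCA, which contains it, is in 2.23% of all windows. One window, that of Slc25a3, held the NRF1 site, which 3.74% of all windows hold. Some genes have several windows, and those of Slc25a14 overlap. With so few windows, neither count sets the members apart. A match is a run of letters, not a measured binding site. The array files give no probe sequence, so no probe could be placed on these genes.

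All 10 genes of the brown adipocyte list, among them Ucp1, Cidea, Cox8b and Prdm16, were measured. Lists of other cell types were measured as well, so this shows that the markers were present and does not set the tissue apart from others. Both Rora probes read lower in DKO, with log2 ratios of −0.42 and −0.35 for one and −0.54 and −0.40 for the other. Both are dim, and the software's ratios, made without the offset used here in background correction, were −0.91 and −1.02, and −1.42 and −1.61. Whether they lie within the deleted part is not stated by the labels or files. A probe counted as measured where one genotype was well above background, by 2.6 background SDs, on both arrays, which held for 32421 of 41174 probes. Spots well above background made up 77.6% to 85.4% of probe spots per channel.

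No Slc25a probe passed the size rule in either direction. The rule asked for a mean of at least 2-fold, with each array at least 1.5-fold the same way. Of all measured probes, 0.0987% were called higher and 0.0216% lower, so a count of 0 among 11 measured members does not set them apart. Of these 11, 5 stood above 0 on both arrays, 1 stood below 0 on both, and 5 lay on different sides. The same shares over all measured probes were 19.5%, 17.8% and 62.7%. The median log2 ratio of the members was 0.07, against 0.003 over all measured probes. Means ran from −0.47 to 0.43. The members' count also stayed at 0 and 0 under a 1.5-fold rule, which 0.321% of all measured probes passed upward and 0.228% downward. It was 0 and 0 as well under the software's error model on both arrays, which 0.494% passed upward and 0.423% downward.

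**Figure D1:**
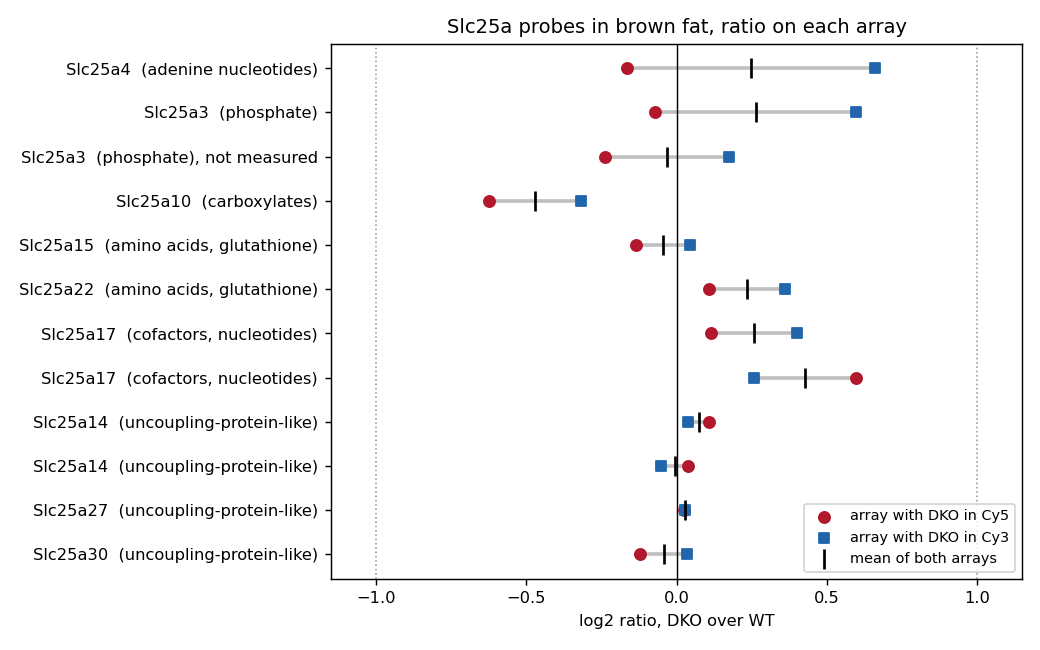
Log2 ratio of DKO over WT (horizontal axis) for each of the 12 Slc25a probes, grouped by substrate. Red circles are the DKO-Cy5 array, blue squares the DKO-Cy3 array, and black ticks their mean; grey bars join the arrays and dotted lines mark 2-fold. Slc25a10 lies left of 0 on both arrays, both Slc25a17 probes lie right of it, and Slc25a4 and Slc25a3 straddle it.

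The probes listed under an Slc25a symbol for carriers that serve ATP synthesis gave no settled direction. Slc25a4 (probe A_52_P105040) encodes the ADP/ATP carrier isoform known from heart and skeletal muscle, which exports ATP made in the matrix in exchange for ADP. Its normalised log2 signal was 11.45 in DKO and 11.62 in WT on the DKO-Cy5 array. On the DKO-Cy3 array it was 12.02 in DKO and 11.36 in WT. The ratios were therefore −0.16 and 0.66, with a mean of 0.25 ± 0.58 (SD, n = 2 arrays), and DKO was the lower genotype on one array and the higher on the other. Slc25a3 encodes the phosphate carrier, which also brings copper into the matrix. Its probe A_51_P269652 had log2 signals of 9.997 in DKO and 10.07 in WT on the first array, and of 10.50 in DKO and 9.90 in WT on the second. The ratios of −0.07 and 0.60 averaged 0.26 ± 0.47, a span wider than the mean. For the other Slc25a3 probe, A_52_P486063, neither genotype exceeded background clearly on both arrays, and it read −0.24 and 0.17.

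Another probe for Slc25a4 is listed in the files under a GenBank name, U27315, and was matched through the symbol in its description. It did not show the gap between arrays. Its log2 signals were 13.29 in DKO and 13.17 in WT on the DKO-Cy5 array, and 13.32 in DKO and 13.21 in WT on the other. The ratios were 0.12 and 0.11. The Slc25a5 probe, for the widely expressed ADP/ATP carrier isoform, read −0.004 and 0.07. Neither of these probes was near the rule's 2-fold.

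Slc25a4 is also a muscle gene, and markers of skeletal muscle stood above 0 in the same comparison. Of 17 listed muscle genes 15 had a probe, all 15 were measured, 12 stood above 0 on both arrays, and 2, Mb and Eno3, passed the size rule. Of all measured probes, 19.5% stood above 0 on both arrays and 0.0987% were called higher. Muscle was not alone: of the 10 brown adipocyte genes, 6 stood above 0 on both arrays, 1 stood below, and 2 were called higher. The median log2 ratio of the muscle genes was 0.63, with 0.45 on the DKO-Cy5 array and 0.80 on the other. Their summed background-subtracted signals were 26663 and 21056 in DKO, against 11386 and 14459 in WT, each time with the DKO-Cy5 array first, and none was at 0. These sums are not corrected for dye: the lymphocyte list, with a median log2 ratio of −0.01, summed to 2239 and 1174 in DKO, against 1335 and 1602 in WT. Their part in the Slc25a4 values was not tested.

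Slc25a10, the mitochondrial dicarboxylate carrier, exchanges malate and succinate for phosphate and is known to be abundant in white fat. Its log2 signals were 8.15 in DKO and 8.77 in WT on the DKO-Cy5 array, and 8.16 in DKO and 8.48 in WT on the DKO-Cy3 array. DKO was the lower genotype on both arrays. The ratios were −0.62 and −0.32, with a mean of −0.47 ± 0.22 (SD, n = 2 arrays), or 1.39-fold higher in WT. The scanner software's own ratios were −0.74 and −0.43. Among all measured probes, 0.972% were below 0 on both arrays with a mean at least 0.32 below 0 on the log2 scale, as this one was. This share depends on brightness: 188 of 29203 probes with a mean log2 intensity under 9 met it, and 127 of 3218 brighter ones. The Slc25a10 probe had a mean log2 intensity of 8.39. Slc25a11, the oxoglutarate/malate carrier of the malate-aspartate shuttle, is listed under a clone name and read −0.26 and 0.21, which gives no direction.

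**Figure D2:**
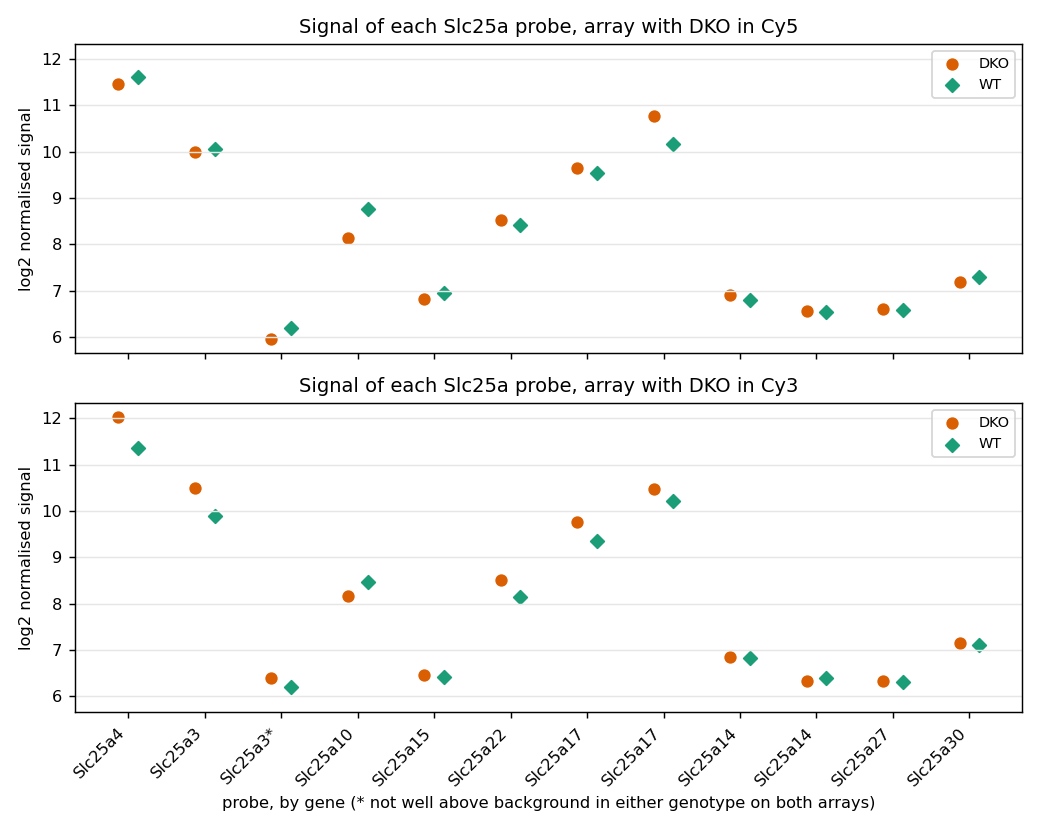
Normalised log2 signal (vertical axis) of each Slc25a probe on the DKO-Cy5 array (top) and the DKO-Cy3 array (bottom), with DKO as orange circles to the left of WT as green diamonds. For Slc25a10 the orange circle is below the green diamond in both panels; for Slc25a4 and Slc25a3 the order turns round between panels. Levels of different probes are not comparable.

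Slc25a17 was read by more probes than any other member and all of them lay on the same side. It encodes a peroxisomal carrier of coenzyme A, FAD and related nucleotides, one of the few family members outside mitochondria. Probe A_52_P72654 had log2 signals of 10.77 in DKO and 10.18 in WT on the DKO-Cy5 array, and of 10.48 in DKO and 10.22 in WT on the other. Its ratios were 0.60 and 0.26, with a mean of 0.43 ± 0.24 (SD, n = 2 arrays), or 1.35-fold. Probe A_51_P375039 read 0.12 and 0.40, with a mean of 0.26 ± 0.20. A dimmer probe listed as Pmp47, an older name of Slc25a17, read 0.20 and 0.57 with a mean of 0.38 ± 0.26, and 0.38 and 1.04 by the software's ratios. DKO was thus the higher genotype in all 6 readings of this gene, and none of the 3 probes passed the size rule. Readings of probes of one gene share the same labelled RNA and are not replicates. The share of all measured probes above 0 on both arrays with a mean of at least 0.32 was 1.18%. Among those with a mean log2 intensity of at least 9, 159 of 3218 met this. Probe A_52_P72654, which is this bright, was the only member to reach that size in that direction.

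Among amino acid carriers, Slc25a22, a mitochondrial glutamate carrier, had log2 signals of 8.52 in DKO and 8.41 in WT on the DKO-Cy5 array, and of 8.51 in DKO and 8.16 in WT on the DKO-Cy3 array. It read higher in DKO on both, at 0.11 and 0.36, and its mean of 0.23 ± 0.18 stayed under 0.32. Slc25a15 exchanges ornithine and citrulline for the urea cycle. It read −0.14 and 0.05, on different sides of 0.

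The uncoupling-protein-like members lay close to 0. Slc25a14, also called brain mitochondrial carrier protein 1, had a probe at 0.11 and 0.04 and another at 0.04 and −0.05. Slc25a30, its close relative, read −0.12 and 0.04. Slc25a27, also known as uncoupling protein 4 and described mainly in brain, read 0.03 on both arrays. These 4 probes were dim: their background-subtracted signals were 14.5 to 113.9 in DKO and 21.3 to 88.6 in WT, and the offset used in background correction shrinks such ratios. With the software's ratios, which differ in background correction and in dye normalisation, Slc25a27 read −0.04 and 0.32. For comparison, Ucp1, the brown fat uncoupling protein, read 0.74 and 0.73.

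**Figure D3:**
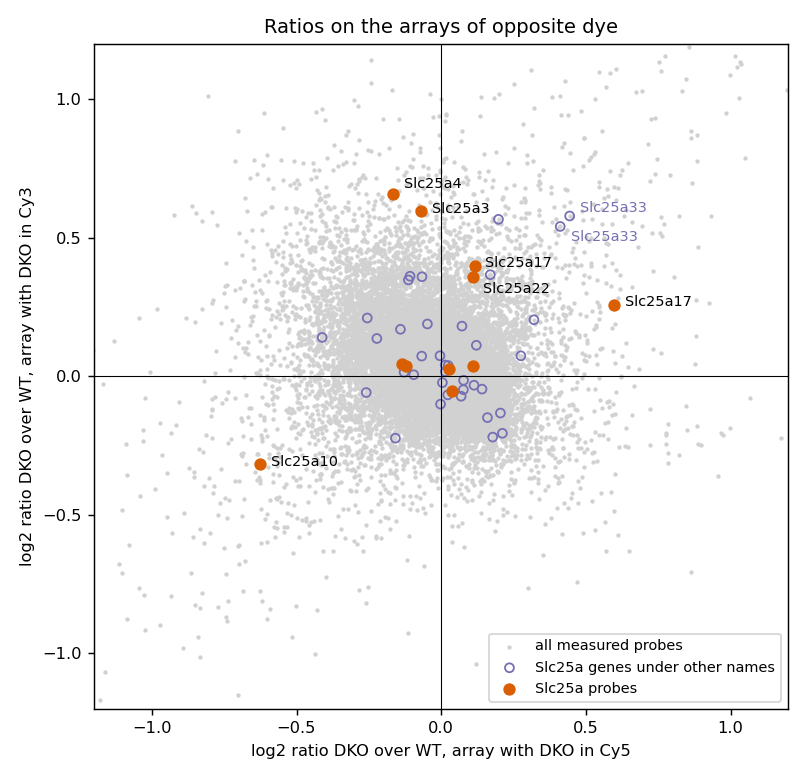
Log2 ratio of DKO over WT on the DKO-Cy5 array (horizontal axis) and on the DKO-Cy3 array (vertical axis). Grey points are all measured probes within the plotted range, filled orange points the 11 measured Slc25a probes, and open purple circles 37 measured probes of Slc25a genes listed under other names. Slc25a4 and Slc25a3 lie left of the vertical line and high above the horizontal one, Slc25a10 lies in the lower left, and Slc25a17 and Slc25a33 lie in the upper right.

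The gap between the arrays of opposite dye was 0.28 to 0.82 for the bright members and 0.0009 to 0.31 for the dim ones. Of the 11 measured members, 8 had the higher ratio on the DKO-Cy3 array, as had 16008 of 32421 measured probes. The 4 members with a mean log2 intensity of at least 9, which are the bright probes of Slc25a3, Slc25a4 and Slc25a17, had a median ratio of 0.02 on the DKO-Cy5 array and of 0.50 on the other. Over all 3218 probes this bright, those medians were −0.005 and 0.010. A gap between arrays of at least 0.5 was seen for 2 of 11 members, Slc25a3 and Slc25a4, or 18.2%. It was seen for 5.51% of all measured probes and for 20.2% of the bright ones. Both of those members are bright, so the share to set beside the 20.2% is 2 of 4 bright members.

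Many family members carry clone or older names on this array and are not covered by the symbol. Matching to RefSeq by accession, or by a symbol within the description, found 35 further probes. Descriptions that spell out the family member added 3, which together brought in 31 genes, 28 of them not among the 9. Of these 38 probes 37 were measured, 11 stood above 0 on both arrays, 3 stood below 0 on both, and 0 passed the size rule. With the members included, 16 of 48 measured probes, or 33.3%, stood above 0 on both arrays and 4, or 8.33%, below. The 19.5% and 17.8% given above are the shares over all measured probes. The median of the 48 was 0.03.

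Slc25a33, which carries pyrimidine nucleotides into mitochondria, had the highest means among these probes. Its probe A_51_P156438 had log2 signals of 9.84 in DKO and 9.40 in WT on the DKO-Cy5 array, and of 9.86 in DKO and 9.28 in WT on the DKO-Cy3 array. The ratios were 0.44 and 0.58, with a mean of 0.51 ± 0.10 (SD, n = 2 arrays), or 1.43-fold. Its other probe, A_51_P156434, read 0.41 and 0.54, with a mean of 0.48 ± 0.09. DKO was the higher genotype in all 4 readings, by similar amounts whichever dye it carried.

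Both aspartate/glutamate carriers, which work in the malate-aspartate shuttle, were measured under clone names. Slc25a12 read 0.32 and 0.20, higher in DKO on both arrays, with a mean of 0.26 ± 0.08. Slc25a13, the isoform prominent in liver, read −0.14 and 0.17. The following probes were chosen after their values were seen. Slc25a28, an iron importer also called mitoferrin 2, read 0.17 and 0.37, and the Slc25a16 probe read 0.28 and 0.07. The other iron importer, Slc25a37 or mitoferrin 1, read 0.08 and −0.05. Slc25a44, a carrier of branched-chain amino acids described in brown fat, read −0.26 and −0.06. Slc25a35, whose substrate is not settled, read −0.16 and −0.22.

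**Figure D4:**
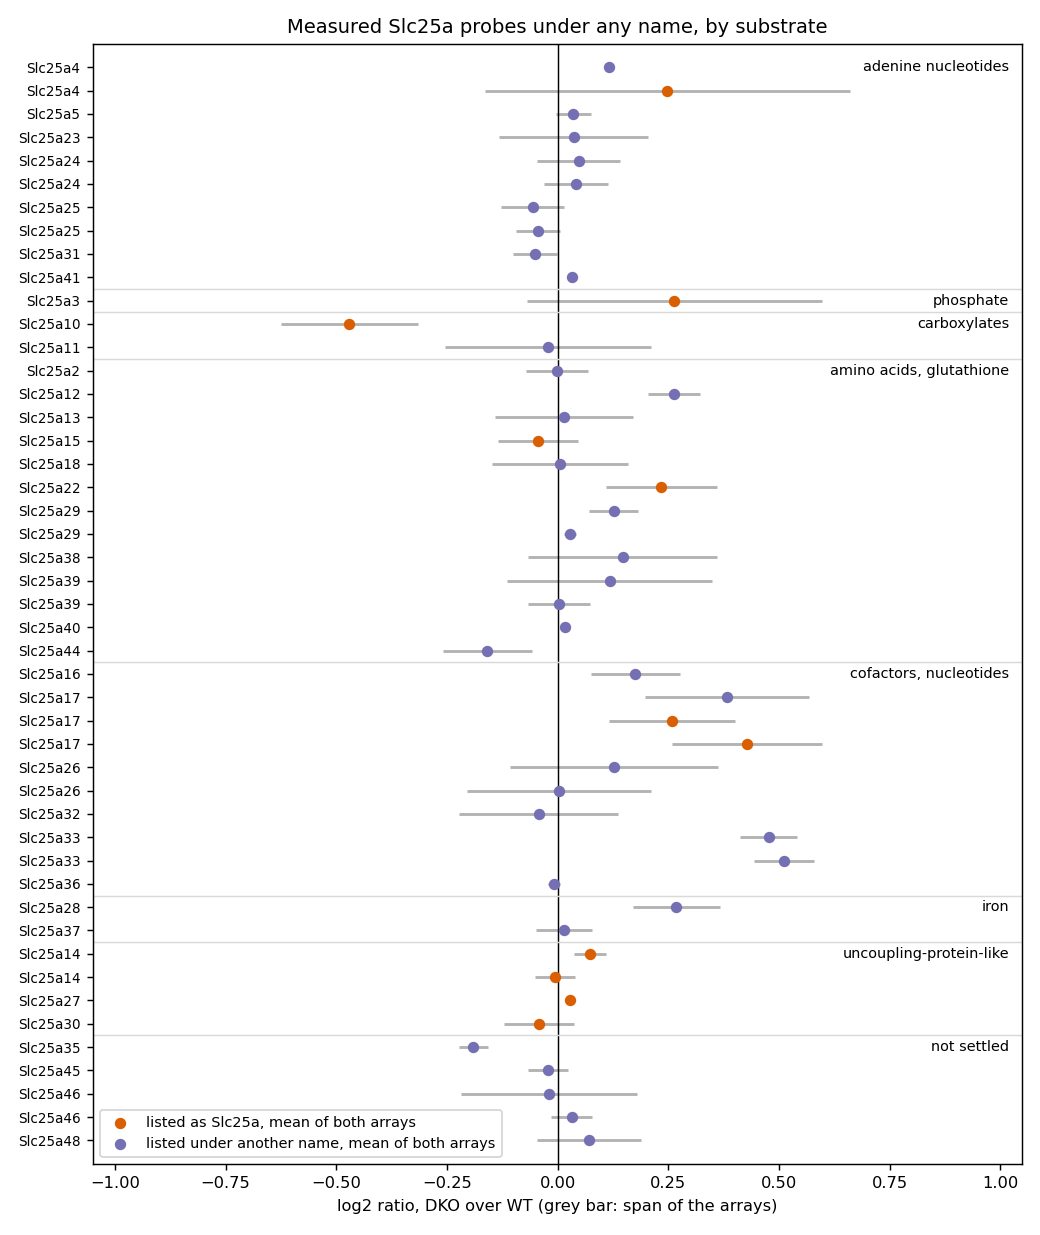
Mean log2 ratio of DKO over WT (horizontal axis) for the measured Slc25a probes under any name, leaving out 1, grouped by substrate down the page; orange points are listed as Slc25a in the files, purple points under another name, and grey bars span both arrays. The Slc25a17 and Slc25a33 bars lie wholly right of 0 and the Slc25a10 bar wholly left of it, while most others cross 0 or lie near it.

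By substrate, the group of cofactor and nucleotide carriers had the highest median of those with more than 2 measured probes. Its 11 probes, among them coenzyme A, S-adenosylmethionine, folate and pyrimidine nucleotide carriers, had a median of 0.17, with 6 above 0 on both arrays and 0 below; 5 of the 6 belong to Slc25a17 and Slc25a33. The 10 adenine nucleotide carrier probes had a median of 0.04, with 2 above 0 on both arrays and 1 below. The 13 amino acid and glutathione carrier probes had a median of 0.02, with 5 above and 1 below. The 4 uncoupling-protein-like probes had a median of 0.01, with 2 above and 0 below. The 5 probes of carriers whose substrate is not settled had a median of −0.02, with 0 above and 1 below. Over all measured probes, 19.5% stood above 0 on both arrays and 17.8% below. Probes of one gene are not independent, and no difference between groups was tested.

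Further carriers and channels of mitochondrial membranes, listed under other names or left out above, were read alongside. Of 23 listed genes 22 had a probe and all 22 were measured, with 6 above 0 on both arrays, 2 below, 0 past the size rule and a median of −0.005. Besides Ucp1, the citrate carrier Slc25a1 read −0.62 and −0.48, and the acylcarnitine carrier Slc25a20 read 0.08 and 0.72. The outer membrane channels Vdac1, Vdac2 and Vdac3 had means of −0.003, −0.06 and 0.15. The pyruvate carrier subunits Mpc1 and Mpc2 read 0.07 and −0.39, and 0.25 and −0.23, on different sides of 0.

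Of 24 enzymes that make or use the carried solutes, 23 were measured, 4 stood above 0 on both arrays, 3 stood below, 1 passed the size rule, and the median was 0.03. The one called was Ckmt2, the sarcomeric mitochondrial creatine kinase, which draws on ATP delivered by the ADP/ATP carrier and read 1.22 and 1.61. The skeletal muscle list above had a median of 0.63, and the part of muscle in the Ckmt2 values was not tested. Got1, the cytosolic aspartate aminotransferase of the malate-aspartate shuttle, read 0.42 and 0.83. Its mitochondrial partner Got2 read −0.08 and 0.41. The malate dehydrogenases of the list, Mdh1 and Mdh2, read 0.65 and −0.63, and 0.23 and −0.10, on different sides of 0. Pank1, which starts coenzyme A synthesis, read 0.35 and 0.75. Pank2 and Coasy, also listed for coenzyme A, read 0.11 and −0.06, and −0.50 and 0.68, which gives no direction. Alas1, the first enzyme of haem synthesis, read −0.40 and −0.12, and the matrix adenylate kinase Ak3 read −0.16 and −0.45. Fech and Ppox, also of haem synthesis, read 0.20 and −0.11, and −0.14 and 0.08.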

How the data were processed

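Images were extracted with Agilent Feature Extraction 7.5, per the submitters' processing notes. The intensity values deposited for each spot (means, medians and local backgrounds) are linear and not normalised, per the file headers. Each spot's deposited log10 ratio is red over green after dye normalisation by the software, and its deposited p-value comes from an error model for one array, per the file headers. The deposited value table holds log2 ratios. These matched the software's ratios of red over green within 0.001 for 40962 of 41001 and 41101 of 41141 values, with both medians at 0. Rosetta Resolver is named for later processing per the labels, with no account of its steps. The labels give 500 ng of total RNA in one place and 100 ng in another, and neither pooling nor shared extracts is stated.

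Mean signals were background-corrected with normexp (offset 50) against the median local background. They were loess-normalised within each array in limma 3.58.1 under R 4.3.3, control spots having weight 0. The offset shrinks ratios of dim probes. Outlier spots (171 and 29) were dropped, saturated spots (12 and 14) were kept, and spots of a probe were averaged. Ratios were turned to DKO over WT. Median signals were 113 to 130 on one array and 107 to 108 on the other, over local backgrounds of 57 to 72. Precision is limited by having 2 arrays. Probes were named through RefSeq (GRCm38.p6), used for names and promoters: 10058 matched by symbol, 9865 by accession, 936 by an older symbol, 321 by description and 19994 not at all. Each listed gene was read by its brightest probe, measured probes first.

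Named probes were those past the size rule, those with a mean of at least 0.32 (log2) and on one side of 0 on both arrays, and those of a fixed set of energy carriers; the rest named were chosen after seeing values. Marker lists of 7 further cell classes were also read: medians were −0.0003 for adipocytes, 0.02 for macrophages, 0.03 for endothelium, −0.35 for erythroid cells, −0.14 for fibroblasts, −0.01 for lymphocytes and 0.29 for brown adipocytes. The values of 1 gene are not reported here, though its probe is in the counts. Members and lists were chosen with earlier results of these data known. Settings tried were offset, spot statistic, centring, loess on detected probes, the software's ratios, the value table, dim filters, size rule, 1 probe per gene, added members and single arrays.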

Additional observations from a re-analysis of the deposited data

How the results depend on the processing

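No Slc25a probe passed the size rule in either direction in any setting run. The members' median of 0.07 was 0.10 with median centring, which also moved the median of all measured probes to 0.041. It was 0.10 with an offset of 16, 0.14 with the software's ratios and 0.14 with the value table, which holds nearly the same ratios. The median was 0.050 without the filter on dim probes, and −0.022 to 0.11 with 1 array left out. These settings measured 12 probes, the dim Slc25a3 probe A_52_P486063 among them. Over the 11 members measured on both arrays, the medians were 0.026 on the DKO-Cy5 array and 0.045 on the DKO-Cy3 array. With older names added, the 35 probes matched to RefSeq, the median was 0.032. With the 3 found by descriptions as well, an addition chosen after seeing the data, it was 0.029. The number above 0 on both arrays became 7 with median centring, 16 with older names, and 16 with descriptions too; the number below 0 became 4 and 4, and 2 with median centring and 2 with median spot signals. The cause of these moves was not tested. More probes were counted where names were added or the dim Slc25a3 probe came in. Over 7 settings with both arrays, Slc25a10 stayed between −0.58 and −0.36, the brighter Slc25a17 probe between 0.42 and 0.57 and Slc25a22 between 0.22 and 0.34. The Slc25a4 probe A_52_P105040 kept a mean above 0, between 0.25 and 0.39. It was −0.16 with the DKO-Cy5 array alone and 0.66 with the DKO-Cy3 array alone. The means of Slc25a14 (A_52_P478281) and Slc25a30, −0.006 and −0.043 as processed here, were below 0 in 5 and 6 of 7 settings. For both probes the arrays lay on different sides of 0, which gives no direction. No paired analysis was possible because each ratio already sets DKO against WT within one array and each genotype counts as 1 replicate. Dim probes and a single comparison of genotypes limit what these arrays can show.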
